A study of Mus musculus with 8 samples.

Results

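The 105 mature miRNAs described here are the ones left of 179 mature names in a small RNA data set of mouse insulinoma cells, once let-7 and the large or abundant families (among them miR-375, miR-7, miR-15 with miR-16, miR-30, miR-26, miR-29, miR-200 and miR-183) were set aside. Every distinct read sequence that the deposited table annotates with a mature mouse miR name was kept, its counts were summed per name, and the other 74 names were left out by their miRNA number. The members were thus chosen by name and not by a measured value. They comprise 239 of the 11568 distinct sequences in the table and are 16 to 25 nucleotides (nt) long. Because 3 sets of names share their sequences (miR-465a/b/c-3p, miR-486a/b-5p and miR-3473b/e, 7 names), the counts form 101 separate entries, called members below.

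The cells were MIN6B1, a mouse insulinoma line that serves as a model of the pancreatic beta cell. They received either a CTRL plasmid or one expressing the HENMT1ΔC-T6B methyltransferase, and total RNA was either left non-oxidized or oxidized with sodium periodate (NaIO4) before library preparation. This gives 4 groups of 2 libraries: non-oxidized control, oxidized control, non-oxidized methyltransferase and oxidized methyltransferase RNA. All groups share the line and the transfection procedure, and the fraction of cells that took up a plasmid is not given in the sources used here. Nothing in the labels says that the 2 libraries of a group came from separate cultures, so p-values measure the spread between these libraries, which may be technical.

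A miRNA is cut by Dicer from a hairpin precursor, and 1 strand, the 5p or the 3p arm, is loaded into an Argonaute protein. There it pairs with target mRNAs mainly through its seed, bases 2 to 8 from the 5′ end. Mature miRNAs of animals carry a 2′ and a 3′ hydroxyl at the last nucleotide, which periodate oxidizes to an end that cannot be ligated to a sequencing adapter. HENMT1 is the enzyme that adds a 2′-O-methyl group to the 3′ end of piRNAs in germ cells, a change that protects the end from periodate. T6B is an Argonaute-binding peptide from the protein TNRC6B, so the fusion is designed to bring the methyltransferase to RNAs held by Argonaute.

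A RefSeq mature sequence (GRCm38.p6) was found for 86 of the 101 members, and these have 82 different seeds. The sequences below are those on which the results turn, written 5′ to 3′ with the seed in capitals. The first group holds the 3 members of the miR-130 with miR-301 family, which share 1 seed and were all lower in oxidized methyltransferase RNA.
miR-130b-3p: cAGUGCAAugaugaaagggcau
miR-130a-3p: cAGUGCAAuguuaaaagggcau
miR-301a-3p: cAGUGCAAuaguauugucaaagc
The second group holds other members that fell in that RNA.
miR-138-5p: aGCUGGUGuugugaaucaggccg
miR-137-3p: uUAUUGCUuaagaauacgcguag
miR-671-5p: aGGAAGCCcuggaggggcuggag
miR-9-5p: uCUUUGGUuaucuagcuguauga
The third group holds members whose counts stayed high in it.
miR-129-5p: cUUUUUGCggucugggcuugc
miR-98-5p: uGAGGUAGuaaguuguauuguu
miR-574-5p: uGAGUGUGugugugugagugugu
miR-3099-3p: uAGGCUAGagagagguugggga
miR-1981-5p: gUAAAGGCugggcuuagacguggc
The seed of miR-98-5p is that of let-7, with 8 let-7 names in the table. That of miR-384-5p is shared with miR-30, that of miR-92b-3p with miR-25-3p, and that of miR-195a-5p and miR-497a-5p with miR-15 and miR-16. miR-181a-5p and miR-181b-5p have 1 seed in common. Seeds were read from the RefSeq sequences only.

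The members' genes lie in several kinds of loci. On GRCm38.p6, miR-130b-3p is at chr16:17124071-17124092 (minus strand) in an intron of 2610318N02Rik, miR-130a-3p is at chr2:84741116-84741137 (minus strand) outside annotated genes of that strand, and miR-301a-3p is at chr11:87113054-87113076 (plus strand) in an intron of Ska2. The sequence of miR-129-5p occurs at chr2:94241419-94241439 (minus strand), in an intron of the long noncoding RNA gene Mir670hg, and at chr6:29022624-29022644 (plus strand), in an exon of the noncoding gene Gm3294. miR-98-5p is at chrX:151913229-151913250 (plus strand) in an intron of Huwe1, and miR-3099-3p at chr7:6803638-6803659 (plus strand) in an intron of Usp29. Reads of a miRNA with several genomic copies, such as miR-129-5p, miR-9-5p, miR-138-5p or miR-181a-5p, cannot be assigned to a copy.

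The listed sequences of a library summed to between 295094 and 6641250 counts, lowest in the oxidized control libraries. These totals are not full depths: no listed sequence has under 2 counts in an oxidized methyltransferase library or under 10 in both together, so the listing itself favours RNAs present there. Of these, members accounted for 135271 and 148443 in non-oxidized control and 600 and 503 in oxidized control libraries. With the methyltransferase the member counts were 82826 and 106049 without oxidation and 56582 and 36190 with it. As a share of all mature miRNA counts they made up 3.85% and 3.39%, 4.36% and 4.97%, 3.68% and 3.48%, and 2.77% and 2.20% in these 4 groups, so the share in oxidized methyltransferase RNA lay below that of every other library. With 2 libraries against 2 the smallest two-sided p of an exact permutation test is 0.333, so single values such as these shares cannot reach 0.05 by that test.

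The endocrine label was checked against members known from that lineage. miR-184-3p, an islet miRNA, was counted 376 and 325 times in non-oxidized control RNA, and miR-342-3p had 502 and 521; of 5 endocrine names looked for, these 2 are listed among the members. Of miRNAs that mark other cell types, the hepatocyte miRNA miR-122-5p (463 and 183 counts) and the endothelial miRNA miR-126a-3p (248 and 311 counts) are listed. None of the 7 muscle, 6 blood cell, 5 mesenchymal or 3 acinar names is among the members. Since the listing requires counts in oxidized methyltransferase RNA, a name missing from it may still have been present before oxidation. The part that RNA of other cells plays in these 2 entries was not tested.

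miR-129-5p was the most abundant member, followed by miR-98-5p and miR-130b-3p. miR-129-5p, known from neuroendocrine tissue, was counted 31980 and 34341 times in non-oxidized control RNA, 138 and 91 after oxidation, 23390 and 30634 in non-oxidized methyltransferase RNA, and 23646 and 11932 after oxidation. It alone made up 23.6% and 23.1% of member counts in the non-oxidized control libraries and 41.8% and 33.0% in oxidized methyltransferase RNA. miR-98-5p, a let-7 relative, had 10540 and 13941, 65 and 37, 6595 and 8942, and 4922 and 4579 counts in the same order of groups. Both miRNAs thus had at least 4579 counts in 6 libraries and at most 138 in the 2 oxidized control libraries.

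**Figure D1:**
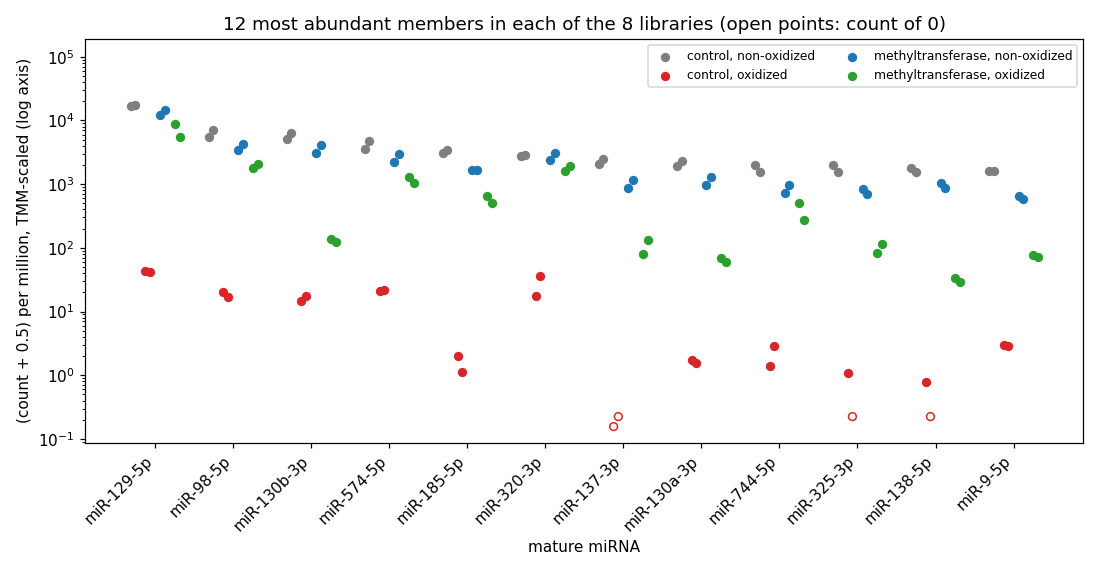
Level of the 12 most abundant members (x axis) in each of the 8 libraries, as CPM (with 0.5 added to each count) on TMM-scaled library sizes (log y axis); each point is 1 library and open points are counts of 0. The oxidized control libraries are lowest for every miRNA shown, and the oxidized methyltransferase libraries lie near the non-oxidized ones for miR-129-5p, miR-98-5p and miR-320-3p but far below them for miR-130b-3p and miR-138-5p.

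Member reads were nearly all gone in oxidized control RNA. In oxidized control RNA 79 of 101 members had 3 counts or fewer in both libraries, and 68 had none in either. A count of 0 still allows up to 3 counts, or 0.000684% and 0.00102% of the listed counts of these libraries. miR-137-3p, a brain-enriched miRNA, went from 3938 and 4766 counts to 0 and 0, and miR-181a-5p from 2559 and 1634 to 0 and 0. miR-185-5p went from 5787 and 6547 counts to 6 and 2, which is 2307-fold lower per TMM-scaled library size and 101-fold lower per listed count. In each of these the groups were far apart.

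By edgeR's quasi-likelihood test, 96 of the 99 members tested fell with oxidation in control RNA and none rose, at a Benjamini-Hochberg adjusted p under 0.05. Across all 9421 features tested 44.6% fell. With members at or under 3 counts set to that floor, which makes 76 of the folds lower bounds, the median was -6.99 on the log2 scale, or 127-fold lower. The median of all features was -0.88. The count depends on the scaling: with total counts 84 members fell and 3 rose (miR-203-3p, miR-3535 and miR-5121), and when mature miRNAs alone were fitted 13 fell and 7 rose, with a fitted median of -7.56 against -9.70 under TMM. Against TMM, these 2 settings move the median of the features they share by 4.47 and 2.53 on the log2 scale. For these settings, here and in the comparisons below, the share of all features called is not given. Their member counts thus cannot be set against it. The 3 members that did not pass the test were miR-5121 (63 and 15 counts before and 35 and 24 after), miR-203-3p (5 and 22 before, 0 and 60 after) and miR-3535 (2 counts in each library).

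Member reads that remained in oxidized control RNA were short. Reads of 20 nt or fewer made up 18.5% to 20.04% of member counts in the non-oxidized libraries, 82.5% and 85.1% in oxidized control RNA, and 7.24% and 7.30% in oxidized methyltransferase RNA. Without miR-129-5p the shares were 11.5% to 12.9%, 77.3% and 83.3%, and 8.04% and 7.77%. The 3 ranges do not overlap. For miR-129-5p, the 18-nt form had 101 and 28 of the 138 and 91 counts in oxidized control RNA, against 191 and 262 of 23390 and 30634 in non-oxidized methyltransferase RNA. The oxidized control libraries hold only 600 and 503 member counts, so a single form can carry much of their profile.

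**Figure D2:**
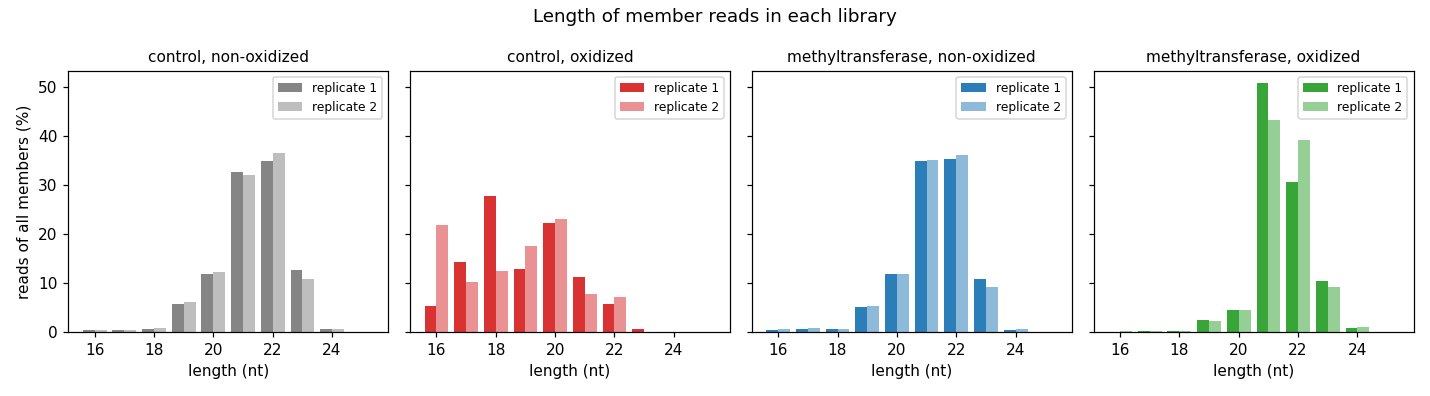
Percentage of all member counts (y axis) at each read length in nt (x axis), 1 panel per group and 1 bar per library. Reads of 21 and 22 nt are the most frequent in 6 libraries, while the oxidized control libraries, with 600 and 503 member counts, have most reads at 16 to 20 nt.

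In oxidized RNA, nearly every member was higher with the methyltransferase than with the control plasmid. The test called 95 of 99 members higher and none lower, where 40.6% of all features were higher and 3.58% lower. Since the listing asks for counts in oxidized methyltransferase RNA, it favours this direction. With the floor of 3 counts, at which 77 of the folds are lower bounds, the median was 3.98 on the log2 scale, or 15.8-fold, against a median of 0.70 over all features.

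Among members with counts above the floor on both sides, miR-3099-3p, a miRNA from an intron of Usp29, had the highest fold. It was counted 8 and 4 times in oxidized control RNA and 4581 and 3340 in oxidized methyltransferase RNA, a 743-fold difference per TMM-scaled library size and an 89.4-fold one per listed count. miR-185-5p, with 6 and 2 counts against 1773 and 1105, was 415-fold higher, or 50.01-fold per listed count. miR-129-5p was 168-fold higher, at 7.39 ± 0.46 (SE) on the log2 scale, and miR-98-5p was 105-fold higher (6.71 ± 0.45); per listed count these were 20.1-fold and 12.6-fold. Their adjusted p-values by edgeR were 5.45e-07 and 7.56e-07.

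For some members the comparison of the plasmids in oxidized RNA depended on the scaling. miR-130b-3p was counted 47 and 39 times in oxidized control RNA and 374 and 268 in oxidized methyltransferase RNA, an 8.03-fold difference per TMM-scaled size (3.01 ± 0.39 on the log2 scale, adjusted p = 5.18e-05 by edgeR). Scaled by total counts the same difference was -0.05 (adjusted p = 0.880), and with mature miRNAs alone it was -3.55 (adjusted p = 1.14e-05), so miR-130b-3p made up about the same share of listed counts in both oxidized groups and a smaller share of mature miRNA counts with the methyltransferase. miR-9-5p, a miRNA of neural and endocrine cells, was 26.8-fold higher under TMM (9 and 6 against 209 and 157 counts) but lower with mature miRNAs alone (-1.84, adjusted p = 0.0167).

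Fewer members passed the test under the other scalings. With total counts 70 members were higher and 3 lower (miR-203-3p, miR-3473b/e and miR-5121), with the median of all features shifted by -3.03 on the log2 scale. With mature miRNAs alone, where a member is compared with the other mature miRNAs of the same RNA, 9 were higher (miR-137-3p, miR-185-5p, miR-1981-5p, miR-3099-3p, miR-324-5p, miR-421-3p, miR-505-5p, miR-532-5p and miR-741-3p) and 7 lower. The members' fitted median there was 7.48, against 7.10 under TMM. Fitted values of members at 0 counts, such as miR-181a-5p (11.3 there, adjusted p = 0.0838 by edgeR), depend on the prior count. The 4 members that were not called under TMM were miR-3473b/e, miR-5121, miR-203-3p and miR-3535.

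Before oxidation no member passed the test between the plasmids. None of 99 was called between non-oxidized methyltransferase and non-oxidized control RNA by edgeR, and 0.0% of all features were called in either direction. At an unadjusted p under 0.05 there were 34 lower and 0 higher members, and the DESeq2 Wald test called 7 lower and none higher. The median of members was -0.75 on the log2 scale, that of the other mature miRNAs -0.85 and that of all features 0.05, and 93 members had a negative value. Under total counts the members' median was -0.19, and with mature miRNAs alone it was 0.16. miR-122-5p had the highest value, with 463 and 183 counts in control and 888 and 642 in methyltransferase RNA. In bulk RNA, fewer cells with a miRNA and less of it per cell cannot be told apart.

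In methyltransferase RNA the oxidation effect ranged widely over the members, and 91 of 99 had a negative value. Since the listing asks for counts in oxidized methyltransferase RNA, forms lost there are left out, which favours higher values. Of 99 tested members 44 fell, none rose and 55 did not pass the test, with a median of -1.64 on the log2 scale. Over all features 9.86% fell and 1.52% rose, and the median was 0.09. The other mature miRNAs fell in 45 of 78 cases with a median of -2.02. With total counts 22 members fell and 1 rose (miR-3535), and with mature miRNAs alone 22 fell and 7 rose (miR-1934-3p, miR-1981-5p, miR-3099-3p, miR-3535, miR-465a/b/c-3p, miR-505-5p and miR-92b-5p). These settings move the median of the features they share by 0.90 and 1.45. Members that fell under all 3 scalings numbered 21. Without oxidized methyltransferase replicate 1 or replicate 2 the count dropped to 27, and 20 of the 44 were called whichever library was left out.

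**Figure D3:**
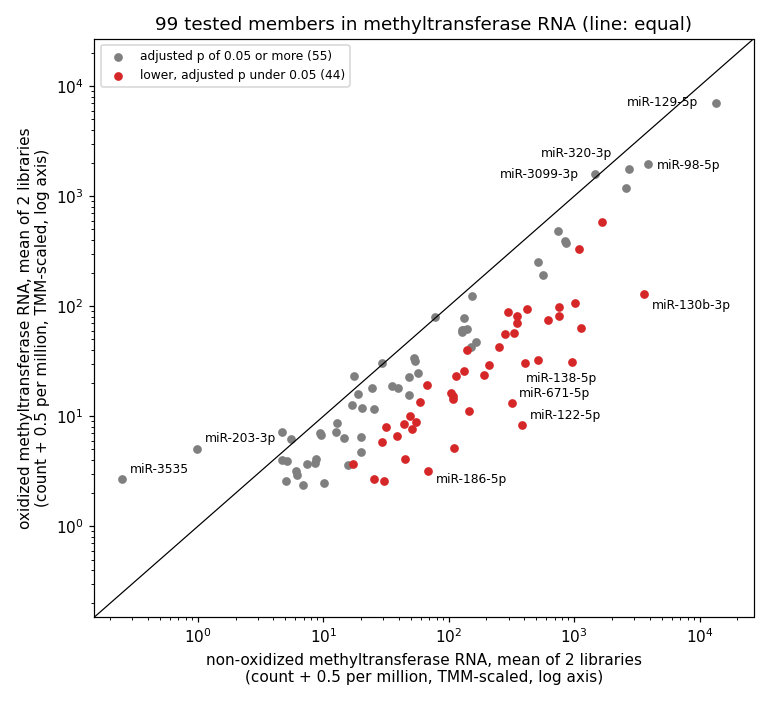
Each of the 99 tested members in methyltransferase RNA before oxidation (x axis) and after it (y axis), both as the mean over 2 libraries of CPM (with 0.5 added to each count) on TMM-scaled library sizes (log axes), with a line where both are equal. The 44 members called lower are red; miR-130b-3p lies far below the line, while miR-129-5p, miR-98-5p, miR-320-3p and miR-3099-3p lie close to it.

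The miR-130 with miR-301 family, regulators of cell growth and metabolism that share the seed AGUGCAA, fell in all 3 of its listed members (of 4 looked for), with a median of -4.15. miR-130b-3p had 5824 and 8761 counts before oxidation and 374 and 268 after it (-4.80 ± 0.41 on the log2 scale, adjusted p = 2.31e-05 by edgeR), a 27.9-fold loss. miR-130a-3p had 1870 and 2682 before and 186 and 129 after (-4.15 ± 0.40). miR-301a-3p had 66 and 60 before and 21 and 17 after (-2.03 ± 0.47). In each of the 3 both oxidized libraries were below both non-oxidized ones. Scaled by total counts or with mature miRNAs alone, 2 of the 3 still passed the test and all 3 values stayed negative (medians -3.23 and -2.69).

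miR-138-5p, a miRNA enriched in neurons, had 1960 and 1854 counts before and 91 and 63 after (-4.94 ± 0.49, adjusted p = 4.30e-05 by edgeR). miR-137-3p fell from 1643 and 2486 to 217 and 294 (-3.26 ± 0.44), and miR-671-5p, encoded in an exon of Chpf2, from 662 and 601 to 39 and 26 (-4.59 ± 0.57). miR-186-5p had 137 and 134 counts before and 4 and 10 after (-4.51 ± 0.60). All 4 were far lower in both oxidized libraries.

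The 2 miRNAs known from other cell types were also among those most depleted. miR-122-5p was counted 888 and 642 times before oxidation and 33 and 9 times after it (-5.55 ± 0.71, adjusted p = 4.03e-04 by edgeR), the most negative value of any member. miR-126a-3p had 155 and 290 before and 21 and 5 after (-4.42 ± 0.64, adjusted p = 9.32e-04).

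For several abundant members the difference did not pass the test. miR-129-5p was lower by 0.93 ± 0.35 on the log2 scale and miR-98-5p by 0.99 ± 0.35, and neither passed the test (adjusted p = 0.123 and 0.0968 by edgeR). miR-320-3p, whose precursor is made without Drosha, had 4564 and 6512 counts before and 4391 and 4229 after (-0.64 ± 0.39). miR-3099-3p had 2250 and 3675 before and 4581 and 3340 after (0.13 ± 0.36), with overlapping libraries once scaled. miR-574-5p had 4272 and 6179 before and 3583 and 2277 after (-1.14 ± 0.36, adjusted p = 0.0647). The sign of 4 of these 5 depends on the scaling: miR-320-3p was at 0.28 with total counts and 0.85 with mature miRNAs alone, where miR-129-5p was at 0.51, miR-98-5p at 0.49 and miR-574-5p at 0.32.

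Ratios of 2 miRNAs within a library do not depend on the scaling. miR-320-3p had 0.784 and 0.743 counts per count of miR-130b-3p in non-oxidized methyltransferase RNA, and 11.7 and 15.8 after oxidation. In control RNA the ratio was 0.532 and 0.461 before oxidation and 1.19 and 2.03 after it, so it also rose there. For miR-3099-3p over miR-138-5p the ratio went from 1.15 and 1.98 to 50.3 and 53.0 in methyltransferase RNA. In control RNA it was 0.818 and 0.985 before oxidation. After it, the ratio was 4.0 in replicate 1, and replicate 2 had no count of miR-138-5p. These pairs were picked from the ends of the range after their values were seen, and are given as a description. The ratio moved less for the 2 seed relatives: miR-130b-3p over miR-130a-3p was 3.11 and 3.27 before oxidation and 2.01 and 2.08 after it.

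**Figure D4:**
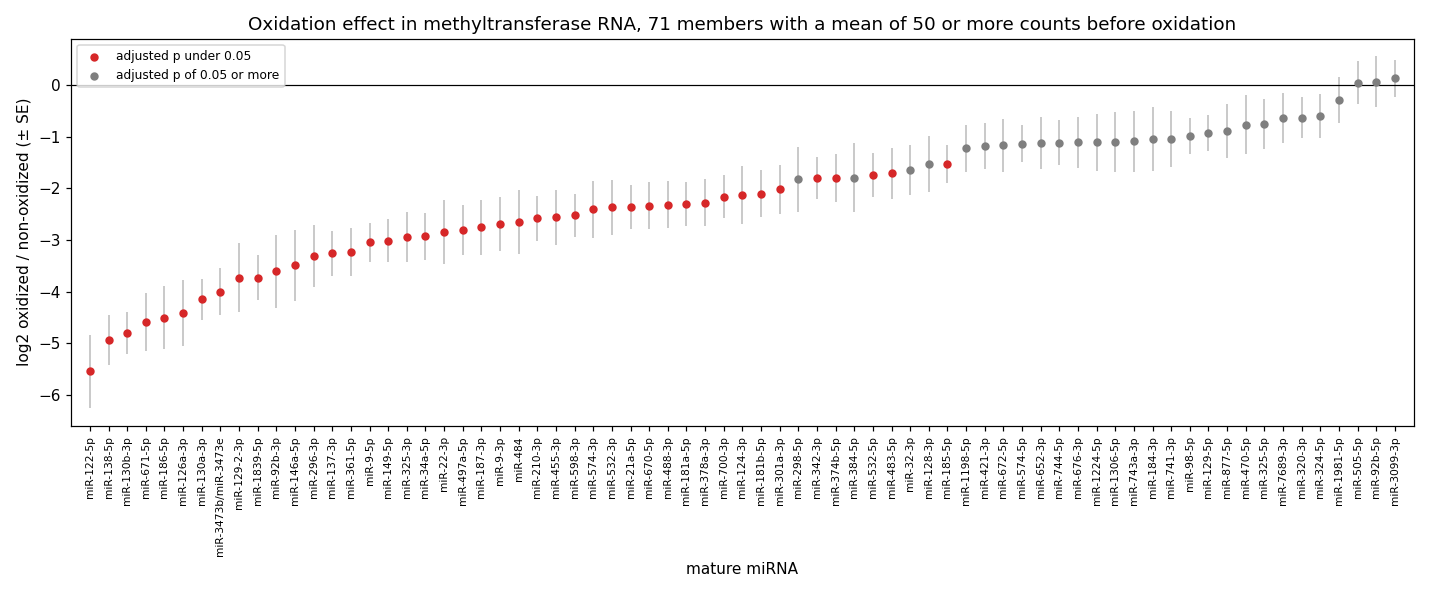
Log2 of oxidized over non-oxidized methyltransferase RNA (y axis, points, with SE bars from the edgeR fit) for the 71 members with a mean of at least 50 counts before oxidation, in ascending order along the x axis; red points passed the test. Values run from -5.55 for miR-122-5p to 0.13 for miR-3099-3p, and 43 of the 71 were called lower.

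Of 16 beta cell and endocrine miRNAs looked for, 7 are listed, in 10 members, and 7 of the 10 fell with oxidation in methyltransferase RNA (median -2.25), where 44 of 99 members and 9.86% of all features did; with total counts and with mature miRNAs alone 3 fell (medians -1.38 and -0.82). They include the inflammation-linked miR-21a-5p (293 and 233 counts before, 69 and 57 after) and miR-146a-5p (103 and 73 before, 9 and 10 after). miR-184-3p, which had 276 and 227 counts before and 164 and 136 after, did not pass the test (-1.05 ± 0.63). All 10 were higher with the methyltransferase in oxidized RNA, as were 95 of 99 members.

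Both miR-181 members fell, with miR-181a-5p going from 631 and 771 to 158 and 183 counts (-2.30 ± 0.43) and miR-181b-5p from 704 and 682 to 141 and 241 (-2.11 ± 0.46). Without oxidized methyltransferase replicate 1 neither passed the test (adjusted p = 0.0538 and 0.0918 by edgeR), and neither did with total counts or with mature miRNAs alone, where both stayed negative. miR-34a-5p, a target of the tumour suppressor p53, fell from 211 and 223 to 46 and 25 (-2.93 ± 0.45). miR-1839-5p, whose hairpin lies in a gene also annotated as a small Cajal body RNA, fell from 719 and 900 to 76 and 72 (-3.73 ± 0.44).

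The list of non-canonical maturation routes held miR-320-3p, miR-484, miR-877-5p, miR-1224-5p and miR-486a/b-5p. Of these 5 members 1 fell (median -0.90), where 44 of 99 members and 9.86% of all features did. None fell with total counts (median 0.028) or with mature miRNAs alone (median 0.55). The 1 that fell under TMM was miR-484 (119 and 96 counts before, 10 and 30 after, -2.65 ± 0.62, adjusted p = 0.0179 by edgeR). miR-877-5p and miR-1224-5p, which come from short introns, had 51 and 92 counts before against 63 and 32 after, and 173 and 344 before against 234 and 69 after. The 3 members assigned by name to the Sfmbt2 intron cluster were miR-466i-5p, miR-467c-5p and miR-669c-5p, for which no RefSeq locus was found. None was called, at 20 or fewer counts in each of these libraries. The members miR-148b-3p (12 and 11 counts before, 10 and 5 after) and miR-192-5p (23 and 16 before, 5 and 6 after) were also not called. No member belongs to the miR-17-92, miR-10, miR-221 with miR-222, miR-132 with miR-212 or imprinted Dlk1-Dio3 groups that were looked for. Their absence from the listing does not show absence from the cells.

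In 1 cluster on the X chromosome no member was called with oxidation in methyltransferase RNA. Among all members 44 of 99 fell, and among all features 9.86% did. Elsewhere on this chromosome some members were called lower, miR-325-3p among them (-2.94 ± 0.48, adjusted p = 0.00158 by edgeR). miR-741-3p, miR-743a-3p, miR-470-5p, miR-871-5p and miR-465a/b/c-3p lie on the minus strand between chrX:66776760-66776781 and chrX:66839063-66839084, where testis-expressed miRNAs are clustered. miR-741-3p had 1262 and 784 counts before oxidation and 1015 and 287 after (-1.04 ± 0.54), and miR-470-5p had 324 and 200 before and 283 and 113 after (-0.77 ± 0.57). miR-465a/b/c-3p had 44 and 24 before and 70 and 45 after (0.42 ± 0.56). The cluster was picked after its values were seen.

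The arms of 1 hairpin could differ. For miR-92b the 5p arm had 57 and 60 counts before oxidation and 99 and 54 after (0.06 ± 0.49), whereas the 3p arm had 61 and 59 before and 8 and 4 after (-3.61 ± 0.71, adjusted p = 0.00654 by edgeR). That call was lost with total counts (adjusted p = 0.0506) and without oxidized methyltransferase replicate 2 (adjusted p = 0.0789). miR-129-5p had 62.5 and 154 counts per count of miR-129-2-3p before and 1819 and 314 after. miR-325-3p had 11.5 and 19.8 counts per count of miR-325-5p before and 2.97 and 3.25 after, and miR-9-5p had 5.14 and 6.92 per count of miR-9-3p before and 4.54 and 4.62 after. The other 3p arm of miR-129, miR-129-1-3p, had 11 and 10 counts before and 3 and 24 after, and reads of miR-129-5p cannot be assigned to either hairpin. In other hairpins the 5p arm had the lower value: miR-138-5p was at -4.94 and miR-138-2-3p at -1.09, and miR-671-5p was at -4.59 and miR-671-3p at -2.25. For miR-574 the ratio of the 5p to the 3p arm was 50.9 and 67.2 before and 189 and 108 after. miR-532-5p fell from 493 and 712 counts to 279 and 165 and miR-532-3p from 60 and 57 to 18 and 10. Neither call held with total counts (adjusted p = 0.169 and 0.0892), with mature miRNAs alone (0.551 and 0.129), without oxidized methyltransferase replicate 1 (0.0632 and 0.0586) or without replicate 2 (0.150 and 0.111). The 5p call was also lost without non-oxidized methyltransferase replicate 2 (0.121) and the 3p call without replicate 1 of that group (0.0526). Over all tested members, 19 of 49 5p arms fell (median -1.19) and 23 of 45 3p arms (median -2.03). Of all 99 tested members 44 fell, and of all features 9.86%. The difference between arms was not tested.

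Within single members, forms that differ at the 3′ end could behave differently after oxidation. HENMT1 methylates the last nucleotide of an RNA, so the forms below are printed with it in capitals. They are the reads as listed in the table, in DNA letters, and were chosen after their values were seen to show forms of 1 miRNA that end in guanine and forms that do not.
miR-129-5p, 19 nt: ctttttgcggtctgggctT
miR-129-5p, 20 nt: ctttttgcggtctgggcttG
miR-129-5p, 21 nt: ctttttgcggtctgggcttgC
miR-137-3p, 22 nt: ttattgcttaagaatacgcgtA
miR-137-3p, 23 nt: ttattgcttaagaatacgcgtaG
miR-138-5p, 22 nt: agctggtgttgtgaatcaggcC
miR-138-5p, 23 nt: agctggtgttgtgaatcaggccG
miR-483-5p, 21 nt: aagacgggagaagagaagggA
miR-483-5p, 22 nt: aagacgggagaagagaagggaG
miR-741-3p, 22 nt: tgagagatgccattctatgtaG
miR-741-3p, 23 nt: tgagagatgccattctatgtagA
miR-1224-5p, 20 nt: gtgaggactggggaggtggA
miR-1224-5p, 21 nt: gtgaggactggggaggtggaG
miR-130b-3p, 21 nt: cagtgcaatgatgaaagggcA
miR-130b-3p, 22 nt: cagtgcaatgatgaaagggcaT
For comparison, miR-130b-3p lost both of its main forms, neither of which ends in guanine.

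The 23-nt form of miR-138-5p, which ends in guanine, went from 1678 and 1575 counts in non-oxidized methyltransferase RNA to 12 and 3 after oxidation (-8.04 ± 0.61 on the log2 scale, adjusted p = 2.58e-05 by edgeR over 9851 distinct sequences). The 22-nt form, 1 base shorter and ending in cytosine, went from 226 and 205 to 64 and 55 (-2.12 ± 0.47). The longer form held 88.1% and 88.5% of the reads of this pair before oxidation and 15.8% and 5.17% after it. For miR-137-3p the 23-nt form that ends in guanine went from 630 and 919 counts to 5 and 11, and the 22-nt form from 338 and 528 to 68 and 121. In both miRNAs the form ending in guanine was the one that nearly disappeared.

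miR-129-5p showed the same order with the guanine form as the shorter one. Its 20-nt form was counted 5892 and 7836 times before and 860 and 395 times after (-3.75 ± 0.61, adjusted p = 0.00156 by edgeR), while the 21-nt form went from 14785 and 19138 to 22087 and 11123 (-0.32 ± 0.54). Its 19-nt form ends in uracil and also fell, from 2342 and 3262 to 372 and 201 (-3.57 ± 0.69), so a base other than guanine did not by itself go with retention. The 21-nt form made up 71.5% and 70.9% of the reads of the 20- and 21-nt forms before oxidation and 96.3% and 96.6% after.

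Other members held a retained and a lost form side by side. The 22-nt form of miR-483-5p, from an intron of Igf2, ends in guanine and went from 1395 and 2115 counts to 303 and 182 (-3.13 ± 0.41), while its 21-nt form had 298 and 449 before and 671 and 420 after (0.27 ± 0.39, not past the test). The 22-nt form of miR-741-3p that ends in guanine went from 448 and 301 to 25 and 10, and the 23-nt form that ends in adenine from 692 and 433 to 900 and 245. For miR-1224-5p the 21-nt form went from 110 and 254 to 33 and 13, and the 20-nt form from 51 and 63 to 169 and 48. In each of these 3 the sum per name hides forms that went apart. By contrast, miR-130b-3p fell in its 22-nt form (4440 and 6619 to 275 and 143) and in its 21-nt form (1183 and 1865 to 22 and 36), which end in uracil and adenine.

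Across the members there were 66 pairs of forms that start at the same base and differ by 1 nt at the 3′ end, both with a mean of at least 50 counts in non-oxidized methyltransferase RNA. In 35 of these pairs, from 23 names, exactly 1 form ended in guanine, and in 32 of the 35 that form had the lower log2 value (median difference -1.90). Its share of the pair's reads was lower in both oxidized libraries than in both non-oxidized ones in 29 pairs and higher in 3. Those 3 were in miR-122-5p (21 and 22 nt), miR-185-5p (20 and 21 nt) and miR-9-5p (21 and 22 nt). In miR-122-5p, the member with the most negative value, the 22-nt guanine form held 10.9% and 13.9% of the reads before oxidation. After it, that form held 75.8% and 77.8% of 33 and 9 counts. Among the other mature miRNAs the guanine form was the lower one in 54 of 63 such pairs, with a median of -2.003. For forms ending in cytosine the member count was 2 lower of 20, in adenine 7 of 23 and in uracil 12 of 28. Length went with the same values: the longer form was higher in 45 of the 66 member pairs, and in 70 of 135 pairs of the other mature miRNAs. Pairs of 1 miRNA share a form and a source, so no test was made over them, and the part of read length or of the library chemistry was not tested.

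**Figure D5:**
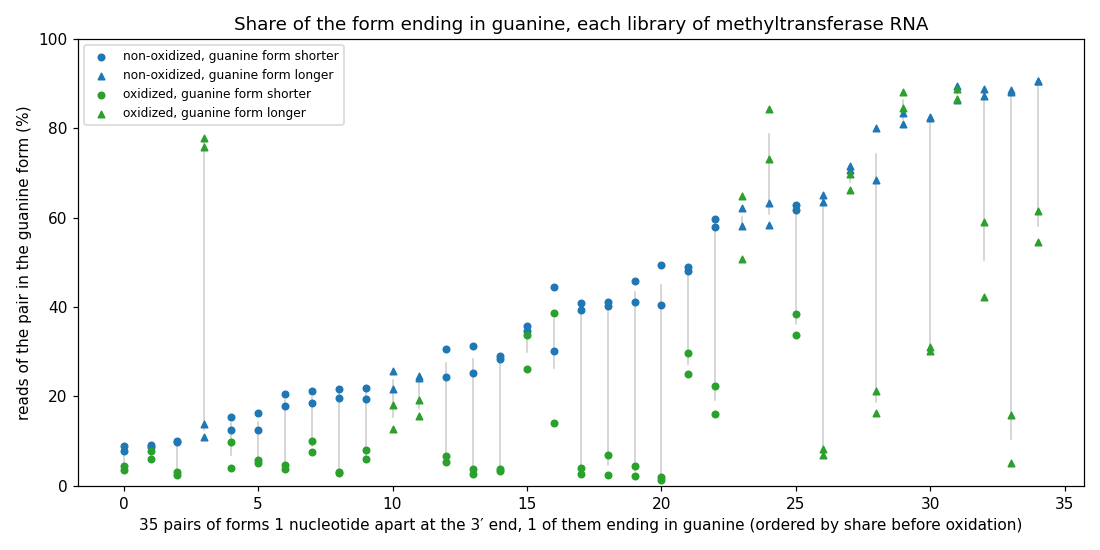
Percentage of the reads of a pair that ended in guanine (y axis) for the 35 member pairs in which exactly 1 form did so, ordered by the share before oxidation (x axis); blue points are the 2 non-oxidized and green points the 2 oxidized methyltransferase libraries, and triangles mark pairs whose guanine form is the longer one. The green points lie below the blue ones in 29 pairs and above them in 3.

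Reads ending in guanine made up 21.6% and 21.6% of member counts without oxidation in control RNA and 22.5% and 22.7% in methyltransferase RNA. In oxidized methyltransferase RNA they made up 6.84% and 6.15%, and in oxidized control RNA 14.5% and 19.1%. Without miR-129-5p the values in non-oxidized methyltransferase RNA were 21.4% and 21.5%, and after oxidation 9.10% and 7.50%. The oxidized methyltransferase libraries were thus the lowest of the 8 with and without the most abundant member.

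Over single sequences, the test called 108 of 223 member sequences lower with oxidation in methyltransferase RNA and none higher. Of all distinct sequences 11.2% fell and 1.75% rose. Sequences lost in oxidized methyltransferase RNA are not listed, so these counts can miss losses. Of the 141 member sequences with a mean of at least 50 counts before oxidation, 34 of 40 ending in guanine fell, with a median of -3.23. Of those ending in adenine 17 of 28 fell (median -2.31), in cytosine 16 of 25 (median -2.004) and in uracil 34 of 48 (median -2.71). With total counts 56 member sequences fell, and without oxidized methyltransferase replicate 1 or replicate 2 there were 67 and 65.

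Base composition of the whole mature sequence was weakly related to the oxidation effect. Over 62 members with a RefSeq sequence and a mean of at least 50 counts, the percentage of guanine had a Pearson's r of 0.26 and a Spearman's rho of 0.32 with the log2 oxidation effect. The 3 other bases lay between -0.20 and 0.05 by both measures. The points share the same 4 libraries, and the values are given as a description across miRNAs.

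The difference between the oxidation effects with the 2 plasmids was positive for nearly all members. The interaction term was called in 96 of 99 members in the direction of a more positive value with the methyltransferase and in none in the other, where 37.9% of all features were called in that direction and 2.63% in the other. The listing favours positive values of this term, since it asks for counts in oxidized methyltransferase RNA. It was 7.75 ± 0.55 on the log2 scale for miR-129-5p and 3.66 ± 0.52 for miR-130b-3p (adjusted p = 2.32e-06 and 1.40e-04 by edgeR). Under total counts 73 members were called in the positive direction and 2 in the other, and with mature miRNAs alone 2 (miR-3099-3p and miR-324-5p) and 4, at fitted medians of 7.19 and 7.44 against 8.08 under TMM. These medians depend on the prior count, since 79 of 101 members had 3 counts or fewer in both oxidized control libraries.

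Under TMM the members that were not called in this term were miR-3473b/e, miR-5121 and miR-203-3p. Reads of miR-3473b/e are 16 to 18 nt long, against a RefSeq mature sequence of 20 nt for miR-3473b. They had 1273 and 1031 counts in non-oxidized control and 92 and 78 in oxidized control RNA. With the methyltransferase there were 798 and 1289 counts without oxidation and 69 and 86 with it. Under TMM the level of miR-3473b/e in the oxidized groups thus did not separate the plasmids (1.01-fold per TMM-scaled size). With total counts and with mature miRNAs alone, miR-3473b/e and miR-5121 were called lower with the methyltransferase in oxidized RNA. Under these 2 scalings they were also called lower in the interaction. miR-5121 lies at chr7:45126925-45126945 (minus strand) within exons of Snord33, a small nucleolar RNA, and of its host Rpl13a. It had 63 and 15, 35 and 24, 40 and 16, and 16 and 14 counts in the 4 groups. Both had more counts in oxidized control RNA than most members, of which only 10 had over 3 counts in both of those libraries.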

How the data were processed

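The deposited table holds unnormalized whole-number counts per distinct sequence in the 8 libraries, per the file headers and values; whether these are reads or molecules, the aligner, trimming and genome build are not given in the sources used here. Libraries were made with the QIAseq miRNA kit, per the labels' protocols. Lines repeating a sequence were merged, and mature miRNA sequences were summed per name. All other sequences stayed single features (11095 in all, 9421 tested). The model was edgeR's (version 4.0.16, R 4.3.3) quasi-likelihood fit of the 4 groups together, with TMM scaling and filterByExpr. Benjamini-Hochberg adjustment ran over all features, with calls under 0.05. TMM factors were 7.28 and 7.53 for oxidized control libraries and 0.29 to 0.90 for the others. Of 101 members, 99 passed the filter (not miR-6934-5p and miR-3057-5p). A group at 3 counts or fewer in both libraries was set to 3 counts per library, which makes a fold a lower bound.

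Counts of 11095 features were simulated with means averaged over the 4 groups and a fixed dispersion. In the oxidized methyltransferase libraries 200 features were changed 8-fold, some up and some down. In the plasmid comparison 103 of 176 tested features so changed were recovered (58.5%), and 2 unchanged ones were called. The simulation lacked the broad loss seen in oxidized control RNA, so it does not give the error rate of the real comparison.

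Members, lists and tests were chosen with earlier results of these data known. Named by rule were the 12 most abundant members, the 3 highest and lowest called log2 values per contrast (mean count of at least 50, no overlap), members with both arms at a mean of at least 50, and the most abundant member of each list. miR-186-5p, miR-301a-3p, miR-483-5p, miR-1224-5p, miR-3099-3p, miR-3473b/e, miR-5121, the X chromosome cluster, other list members and the single forms were chosen after their values were seen. Alternatives included DESeq2 1.42.0 size factors and Wald test, total counts, other filters and feature sets, a replicate block and leaving out each library. The SE values come from the edgeR fit and include its estimate of the spread between libraries. Floors cover counting error only.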

Additional observations from a re-analysis of the deposited data

Results flagged for a closer look

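In a test of the difference itself (the interaction term of the edgeR fit), oxidation acted differently with the 2 plasmids in 96 of 99 tested members, each with the more positive value in methyltransferase RNA. Over all features 37.9% were called in that direction. The listing favours it, since it asks for counts in oxidized methyltransferase RNA. With 79 of 101 members at 3 counts or fewer in both oxidized control libraries, most fitted terms depend on the prior count. The count depends on the scaling: with total counts 73 members were called in that direction and 2 in the other, and with mature miRNA names alone 2 and 4. No other result on the members met the conditions for this section; groups of 2 libraries were too small to test a single library as an outlier.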

How the results depend on the processing

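With features needing at least 10 counts in each group, 11 members were tested: 9 were higher with the methyltransferase in oxidized RNA, 10 fell with oxidation in control RNA, 3 fell with oxidation in methyltransferase RNA and 9 were called in the interaction. With mature miRNA names alone the counts were 9, 13, 22 and 2, and 7 rose with oxidation in methyltransferase RNA. With total counts 22 fell and 1 rose there, and 56 member sequences fell. Fitting only the libraries compared left 64 members tested between the plasmids in oxidized RNA, of which 62 were higher. The DESeq2 Wald test called 7 members between the plasmids in non-oxidized RNA. The cause of these moves was not tested, other than that fewer members could be tested under the first and the fourth of these settings. DESeq2 size factors, no filter, the most abundant sequence of each name and leaving out sequences with several names kept these counts within 1.5 times. All are counts of members, given without the share of all features called under the same setting.

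Leaving out each library in turn gave 94 to 96 members higher with the methyltransferase in oxidized RNA, 0 between the plasmids before oxidation, 96 to 98 lower with oxidation in control RNA, 27 to 51 lower and 0 higher in methyltransferase RNA, and 92 to 96 in the interaction. Member sequences lower in methyltransferase RNA numbered 65 to 120.

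The replicate numbers were not taken as pairs, since the labels tie them to no shared culture and each group has only 2 libraries: across 2237 features the deviations of same-numbered libraries correlated at 0.56 between the non-oxidized groups, 0.15 between non-oxidized control and oxidized methyltransferase RNA, and -0.01 to 0.06 in the other 4 pairs of groups. With a replicate block the counts were 95, 0, 96, 46 lower, 0 higher and 95, and 110 member sequences.

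Signs of single members changed as follows, on the log2 scale. Between the plasmids in oxidized RNA, total counts gave -0.052 for miR-130b-3p and -0.70 for miR-466i-5p. Mature names alone gave -3.55 for miR-130b-3p, -0.79 for miR-574-5p, -0.39 for miR-320-3p, -1.15 for miR-130a-3p, -0.19 for miR-138-5p, -1.84 for miR-9-5p, -2.44 for miR-671-5p, -1.72 for miR-9-3p, -2.08 for miR-298-5p and -4.20 for miR-466i-5p. For oxidation in methyltransferase RNA, total counts gave 0.28 for miR-320-3p, 0.64 for miR-1981-5p, 0.10 for miR-325-5p and 0.70 for miR-466i-5p. Mature names alone gave 0.51 for miR-129-5p, 0.49 for miR-98-5p, 0.32 for miR-574-5p, 0.85 for miR-320-3p, 0.32 for miR-744-5p, 0.33 for miR-741-3p, 1.17 for miR-1981-5p, 0.68 for miR-325-5p, 0.49 for miR-148b-3p and 1.22 for miR-466i-5p. miR-1981-5p was at 0.088 with only the libraries compared and 0.66 with its most abundant sequence, and miR-92b-5p at -0.23 with its most abundant sequence. Leaving out each library in turn gave -0.69 to 0.14 for miR-1981-5p, -0.27 to 0.44 for miR-92b-5p and -0.61 to 0.24 for miR-466i-5p.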

Other observations

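A pair of members had counts in patterns unlike the rest. Each was listed as 1 sequence shorter than its RefSeq mature form. For miR-203-3p it was 16 nt long against 22 nt, and for miR-3535 it was 18 nt against 26 nt. The locus of miR-3535 is also annotated as a small nucleolar RNA, Gm24148. miR-203-3p, a miRNA of epithelia, was counted 5 and 22 times in non-oxidized control RNA, 0 and 60 in oxidized control RNA, 1 and 2 in non-oxidized methyltransferase RNA and 8 and 15 after oxidation, so its highest count came from 1 of the 2 oxidized control libraries. miR-3535 had 2 counts in each control library, 0 in each non-oxidized methyltransferase library and 6 in each oxidized one; its fitted increase of 5.51 ± 1.71 (SE) on the log2 scale with oxidation in methyltransferase RNA did not pass the test (adjusted p = 0.0650 by edgeR) and depends on the prior count. Short forms of miR-98-5p of 16 and 17 nt had 10 and 6, and 17 and 12, of the 65 and 37 counts in oxidized control RNA, and 3 or fewer counts in each non-oxidized library.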
